A study of Mus musculus with 24 samples.

Results

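The genes described here are the eukaryotic translation initiation factor genes of the mouse microglial line BV2, read in the cells and in the extracellular vesicles (EVs, membrane-bound particles that cells release into the medium) under the same treatments. They were taken by name: every listed symbol that begins with Eif and a digit from 1 to 6, without the eIF2 kinases (Eif2ak1 to Eif2ak4) and without pseudogene names. Of 13290 listed entries, 54 names matched the pattern and 49 genes were kept. Of the 5 left out, 4 were the eIF2 kinases and 1 was a pseudogene. Eif2s3y and Eif4ebp3 were not analysed here. The rule reads symbols and no measured value.

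BV2 is a single immortalised mouse line, so all 24 libraries share 1 genetic background. Cells were kept as controls or treated with 1 agent for 72 h. LPS (lipopolysaccharide, a component of bacterial walls) was given at 100 ng/mL. IL-10 (interleukin-10, a dampening cytokine) and TGF-β (transforming growth factor beta) were each given at 50 ng/mL. RNA was sequenced from the cells and from their EVs. This gave 8 groups of 3 libraries. The labels do not say that the 3 libraries of a group came from separate cultures, so the p-values below measure the spread between libraries, which may be technical. Library numbers are those of the table columns, and no source says that equal numbers share a culture.

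Initiation brings a ribosome to the start codon of an mRNA. The cap-binding protein eIF4E, the scaffold eIF4G and the helicase eIF4A bind the mRNA, and the 4E-binding proteins (Eif4ebp genes) hold eIF4E away from eIF4G until the kinase mTORC1 phosphorylates them. The small ribosomal subunit carries eIF1, eIF1A, eIF3, eIF5 and the initiator tRNA on eIF2, eIF5B joins the large subunit, and the exchange factor eIF2B reloads eIF2 with GTP, a step that phosphorylation of eIF2 blocks under stress. In macrophages and microglia, control of initiation is known to set how much cytokine protein is made from a given amount of mRNA.

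The cell libraries held 26136825 to 42125153 counts and the EV libraries 3019338 to 17978753, so a count of 3 stood for 0.0712 to 0.115 CPM (the counts-per-million unit) in cells and 0.167 to 0.994 CPM in EVs. Across genes, libraries of 1 group correlated at r = 0.992 to 0.996 in cells and 0.673 to 0.855 in EVs. Control EV library 1 was the deepest EV library, and the LPS EV libraries stood apart: genes silent in all 12 cell libraries summed to 1157 to 4986 CPM there and to 9.79 to 131 CPM in the other EV libraries. Of 27 markers of other cell types 10 were listed, and these summed to 94.5 to 477 CPM in LPS EVs with none at 0, against 1.77 to 112 CPM in control EVs, 10.6 to 27.6 in IL-10 EVs, 7.96 to 50.6 in TGF-β EVs and 7.77 to 17.0 in cells. All 10 of 10 microglial markers were listed, at a summed 6020 to 8040 CPM in cells and 1770 to 7000 CPM in EVs. In bulk libraries such as these, fewer cells carrying an RNA and less RNA per cell cannot be told apart.

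All 49 genes had counts in every cell library, while up to 6 were at 0 in an EV library. Levels are CPM after scaling by the trimmed mean of M values (TMM) within the cells or within the EVs. Per kilobase of exon in control cells, Eif5a, which helps ribosomes through difficult peptide bonds, stood highest at 362 ± 20.6 CPM per kb (SD, n = 3). It was followed by the eIF3 subunit Eif3b at 254 ± 16.7 and the helicase Eif4a1 at 241 ± 5.85 CPM per kb, which do not differ beyond their spread. Eif6, which keeps the large subunit from joining early, came next at 127 ± 4.44 CPM per kb. Eif3j2, Eif4e3 and Eif5a2 closed the order at 0.307 ± 0.0831, 0.412 ± 0.0672 and 0.416 ± 0.181 CPM per kb, again within each other's spread. Of near relatives, Eif4a1 stood at 241 and Eif4a2 at 10.6 CPM per kb, Eif5a at 362 and Eif5a2 at 0.416, and Eif4g2 at 74.9, Eif4g1 at 57.3 and Eif4g3 at 6.04.

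The eIF3 complex holds its core subunits together as 1 assembly, yet their counts per kilobase of exon differed widely. Length here is that of all annotated exons of a gene merged, which can exceed the length of a transcript. Over 13 subunit genes (leaving out Eif3j2, a near-identical copy of Eif3j1), Eif3b was the highest and Eif3j1, a loosely bound subunit, the lowest in each of the 12 cell libraries, with 36.4 to 62.5 times between them. The counting of reads shared by Eif3j1 and Eif3j2 is not given, so the level of Eif3j1 and these ratios are uncertain. In EVs the ratio of highest to lowest ran from 12.4 to 53.4 in 11 libraries, and in TGF-β EV library 1 Eif3g was at 0. Eif3k was the highest subunit in all 3 TGF-β EV libraries, and Eif3h in LPS EV libraries 1 and 3.

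**Figure D1:**
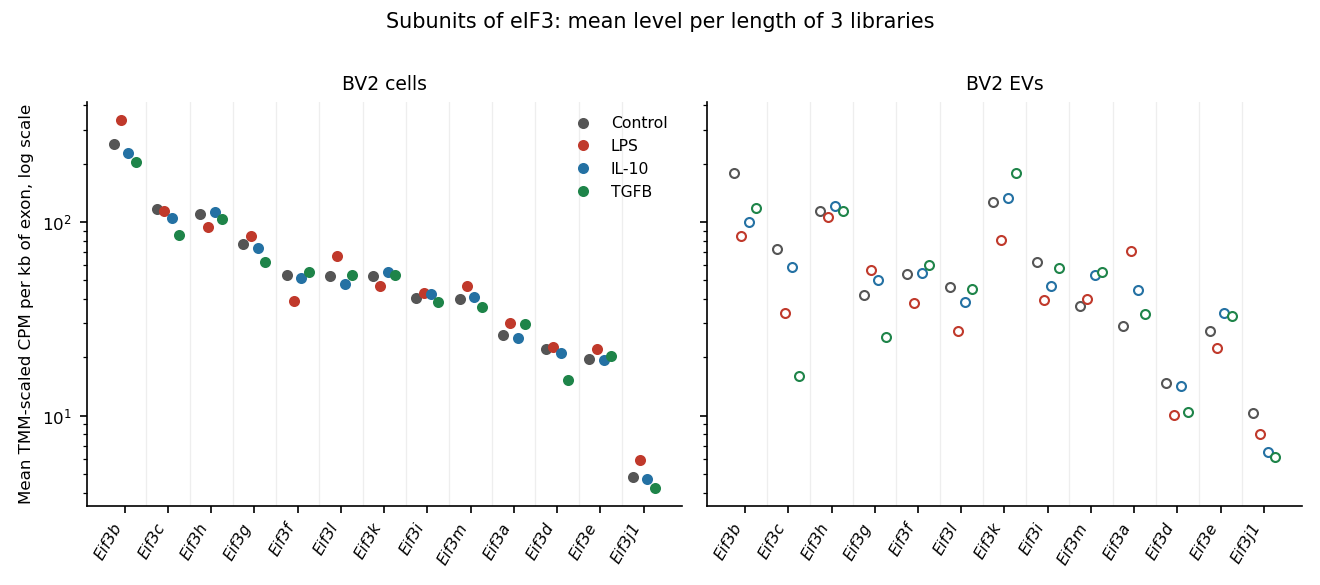
Mean TMM-scaled CPM per kilobase of exon for 13 eIF3 subunit genes on a log axis, by treatment, in cells and in EVs (n = 3 libraries each). Eif3b leads and Eif3j1 closes the order in cells, with a highest to lowest ratio of 36.4 to 62.5 per cell library. In EVs the ratio is 12.4 to 53.4 per library, except TGF-β EV library 1, where Eif3g is at 0.

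To see what the genes share in sequence, the promoter windows of RefSeq (GRCm38.p6, 250 bases before to 50 after each start) were searched on both strands for the E-box CACGTG, the palindrome that Myc and the MiT/TFE factors are known to bind. Windows were found for 39 of the 49 genes. An E-box stood in 10 of the 39 (25.6%), against 11.8% of the count-table genes with a window and 8.09% of all genes in the RefSeq table. The 10 were Eif4e, Eif4g1, Eif4a1, Eif4h, Eif3a, Eif3f, Eif3k, Eif1b, Eif5a and Eif5a2, and Eif4e, Eif4g1, Eif5a and Eif5a2 held more than one. Below are 30 bases around 1 E-box (capitals) for the cap-binding protein gene Eif4e (chr3:138527192-138527221, + strand), the scaffold gene Eif4g1 (chr16:20672661-20672690, +), Eif5a (chr11:69921443-69921472, -), Eif3a (chr19:60790654-60790683, -), Eif3f (chr7:108934335-108934364, +) and Eif1b (chr9:120492570-120492599, +), shown because the first 4 rose and the last pair fell in LPS-treated cells.
Eif4e: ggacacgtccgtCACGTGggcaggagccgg
Eif4g1: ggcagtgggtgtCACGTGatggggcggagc
Eif5a: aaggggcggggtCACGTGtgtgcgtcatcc
Eif3a: ccgcgagggaatCACGTGgttccttccttt
Eif3f: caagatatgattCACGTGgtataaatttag
Eif1b: cgtgcggacggtCACGTGgcggcggcgcgc
A pyrimidine run near the start, the feature of mRNAs whose translation follows mTORC1, was sought as a C followed by at least 4 C or T within 10 bases of a start. It was found in 13 of the 39 genes (33.3%) in 37.3% of the count-table genes with a window and in 34.4% of all genes in the table. The longest run among the genes was in Eif3f (chr7:108934405-108934434, +), shown with the run in capitals.
Eif3f: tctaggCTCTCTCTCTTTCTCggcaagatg
A match is a description of letters, and binding was not measured here. In LPS-treated cells 5 of the 10 genes with an E-box rose and 2 fell, and of the 29 without one 13 rose and 6 fell.

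Under LPS the initiation factors rose more often than they fell. The rises were led in abundance by Eif4g2, the scaffold relative that supports initiation without eIF4E, and included the cap-binding Eif4e, all 3 listed eIF2 subunit genes, 3 of 5 eIF2B genes and all 3 genes of the eIF5A and eIF6 group. Of the 9 falls 5 were in the cap-binding group, and none passed 0.45 on the log2 scale. By edgeR's quasi-likelihood test with Benjamini-Hochberg adjustment over all genes (adjusted p under 0.05), 24 of 49 genes rose where 28.6% of the 11951 tested genes did, and 9 fell where 27.5% did. The median log2 change was 0.178 over the 49 genes and 0.0069 over all. Together the 49 genes took 0.915% ± 0.0184 of the counts in control cells and 1.18% ± 0.00776 in LPS-treated cells (SD, n = 3). These shares are of raw library totals, on which the most abundant genes weigh. The top 10 genes of a library took 14.4 to 15.1% of counts in control cells and 12.0 to 12.3% under LPS.

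**Figure D2:**
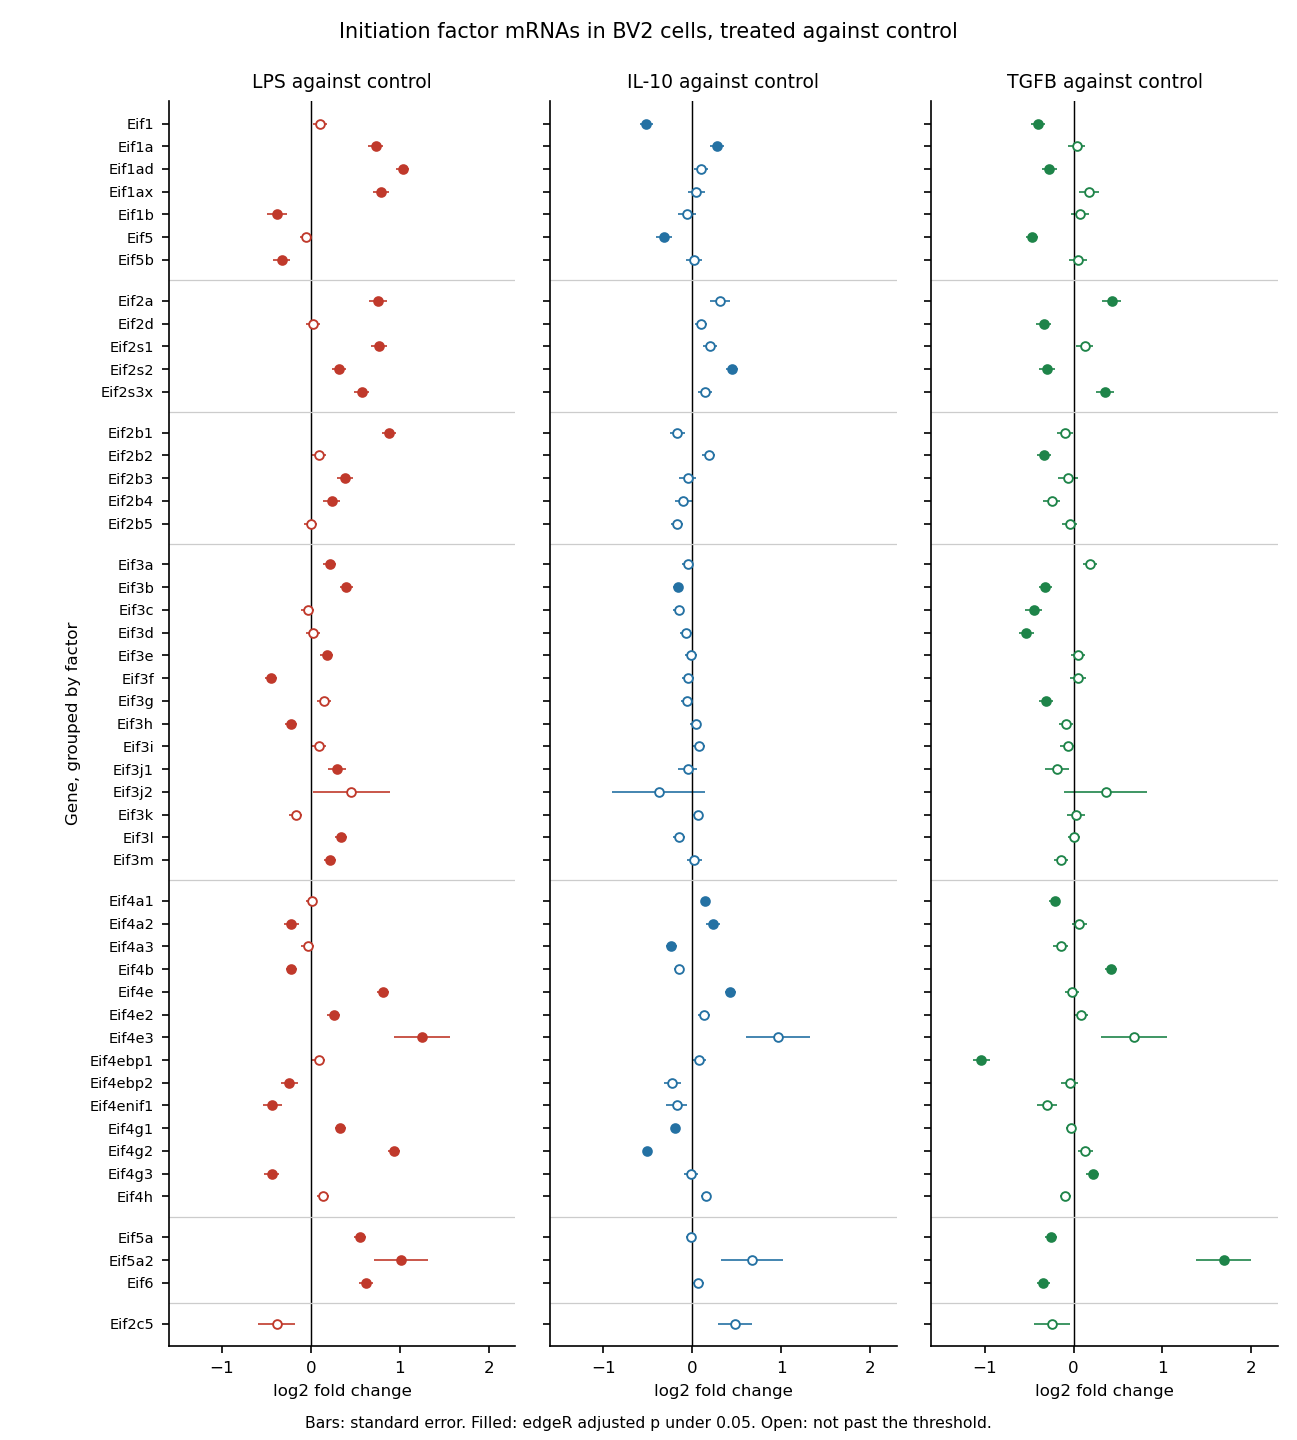
Log2 fold change against control cells for the 49 genes under LPS, IL-10 and TGF-β (bars, standard error; filled points, edgeR adjusted p under 0.05; n = 3 libraries per group). Under LPS 24 genes rose and 9 fell, under IL-10 5 and 6, under TGF-β 5 and 14; the 3 panels share the same control libraries.

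In the scanning and subunit-joining group, eIF1, eIF1A, eIF5 and eIF5B, 3 of 7 genes rose and 2 fell under LPS. Eif1ad, a protein with an eIF1A-like domain, read 56.2, 57.6 and 54.2 CPM in the 3 control libraries and 107, 118 and 118 CPM under LPS. The groups did not overlap, and the log2 change was 1.03 (SE 0.0735, edgeR adjusted p = 6.58e-10), or 2.04-fold. Its exons overlap those of Banf1 on the opposite strand by 428 bases, Banf1 also rose (log2 0.47, 122 to 168 CPM), and the strand setting of the counting is not given, so the part of Banf1 reads in this value was not tested. Eif1a, 1 of a pair of genes for eIF1A, the factor that opens the subunit for scanning, went from 70.9, 80.1 and 77.8 CPM to 136, 112 and 130 CPM, a log2 change of 0.73 (SE 0.0833, edgeR adjusted p = 4.7e-07). Its X-linked partner Eif1ax went from 32.4, 38.1 and 32.6 CPM to 61.1, 58.5 and 58.6 CPM, a log2 change of 0.79 (SE 0.0919, edgeR adjusted p = 5.82e-07). Both genes were separated from control in all libraries, but their sequences are near-identical and the counting of shared reads is not given, so the split between them is uncertain. Eif1b fell by 0.38 and Eif5b by 0.33 on the log2 scale (edgeR adjusted p = 0.0063 and 0.00711), and Rev1, whose exons overlap those of Eif5b on the opposite strand by 1643 bases, rose by log2 0.46, its part in the Eif5b value also not tested. There was no call for Eif1, the start codon fidelity factor (log2 0.10, adjusted p = 0.259), or for the GTPase activator Eif5 (log2 -0.05, adjusted p = 0.481).

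Of the 5 genes for eIF2 and tRNA delivery, 4 rose and none fell under LPS. Eif2s1, the alpha subunit that the stress kinases phosphorylate, read 96.7, 118 and 106 CPM in control cells and 194, 162 and 189 CPM under LPS, with no overlap (log2 0.77, SE 0.0864, edgeR adjusted p = 6.6e-07). The gamma subunit gene Eif2s3x rose from 55.2 ± 4.51 to 82.0 ± 5.79 CPM (log2 0.57, adjusted p = 1.29e-05) and the beta subunit gene Eif2s2 by less (log2 0.32, adjusted p = 0.00125). Eif2a, an alternative initiator tRNA carrier, went from 21.4, 22.2 and 21.9 CPM to 38.3, 35.2 and 37.0 CPM, a log2 change of 0.76 (adjusted p = 2.22e-06). Its exons overlap those of Serp1 on the opposite strand by 72 bases, Serp1 rose 4.51-fold, and the part of Serp1 reads in this value was not tested. Of eIF2B, the alpha subunit gene Eif2b1 rose from 56.6, 59.5 and 52.0 CPM to 97.2, 106 and 106 CPM (log2 0.88, SE 0.0775, edgeR adjusted p = 1.4e-08), Eif2b3 and Eif2b4 rose by log2 0.38 and 0.24, and the catalytic subunit gene Eif2b5 did not pass the test at a log2 difference of -0.0043 (SE 0.0726). Eif2b4, called at adjusted p = 0.0468, lost the call when any of 5 of the 6 libraries was left out, and Snx17, which overlaps its exons on the opposite strand by 204 bases, went the other way (log2 -0.27).

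Among the 14 eIF3 genes 6 rose and 2 fell under LPS, a mixed response within 1 complex. Eif3b, the scaffold with the highest transcript level, rose from 801, 910 and 835 CPM to 999, 1176 and 1182 CPM (log2 0.40, edgeR adjusted p = 0.00011). Eif3f fell from 154, 147 and 160 CPM to 108, 114 and 117 CPM (log2 change -0.45, SE 0.066, edgeR adjusted p = 1.18e-05). Neither gene's groups overlapped. Eif3l rose by log2 0.34, while the rises of Eif3a, Eif3e, Eif3m and Eif3j1 and the fall of Eif3h were at most 0.29 in size and each lost its call without at least 1 library (Eif3h without control library 1). The exons of Eif3j1 and of Spg11 on the opposite strand overlap by 1107 bases, and Spg11 went the other way (log2 -0.63).

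The 14 cap-complex genes split evenly under LPS, with 5 up and 5 down. Eif4g2 (chr7:111067750-111083030, minus strand, GRCm38) read 759, 748 and 775 CPM in control cells and 1544, 1435 and 1383 CPM under LPS. Every LPS library lay above every control library, and the log2 change was 0.93 (SE 0.0639, edgeR adjusted p = 3.47e-10). Its share of all counts taken by the 49 genes went from 8.46% to 13.1%. Eif4e went from 134, 129 and 125 CPM to 234, 225 and 222 CPM (log2 0.81, SE 0.0654, edgeR adjusted p = 3.87e-09), with no overlap. Eif4e2, a cap-binding relative that represses translation, rose by only log2 0.26 (adjusted p = 0.00439), so that its count ratio to Eif4e went from 0.872 ± 0.0364 to 0.595 ± 0.0304. The low-level relative Eif4e3 rose from 1.04 ± 0.169 to 2.46 ± 0.225 CPM (log2 1.25, adjusted p = 0.00237), and Eif4g1 rose by log2 0.33. Down were Eif4g3 (log2 -0.44), Eif4enif1, which carries eIF4E to the nucleus and to processing bodies (log2 -0.43), Eif4ebp2 (log2 -0.24), the eIF4A cofactor Eif4b (log2 -0.22) and the helicase Eif4a2 (log2 -0.22). The calls for Eif4ebp2 and Eif4a2 were lost without 4 and 5 of the 6 libraries. The helicase Eif4a1 stayed at 1050 ± 23.1 CPM against 1044 ± 25.4 (log2 0.01, SE 0.0598), and Eif4ebp1 and the exon junction helicase Eif4a3 did not pass the test.

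All 3 genes of the eIF5A and eIF6 group rose under LPS. Eif5a went from 830, 918 and 837 CPM to 1124, 1312 and 1359 CPM (log2 0.55, SE 0.0721, edgeR adjusted p = 2.46e-06). Eif6 went from 329, 348 and 351 CPM to 446, 565 and 570 CPM (log2 0.62, SE 0.0782, edgeR adjusted p = 2.27e-06). In both genes every LPS library lay above every control library. Eif5a2, the low-level second eIF5A gene, rose from 2.09 ± 0.912 to 4.19 ± 0.519 CPM (log2 1.01, adjusted p = 0.00743). The 1 gene named for the old Argonaute prefix, Eif2c5, a non-coding RNA in the annotation, did not pass the test (log2 -0.39, adjusted p = 0.115).

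**Figure D3:**
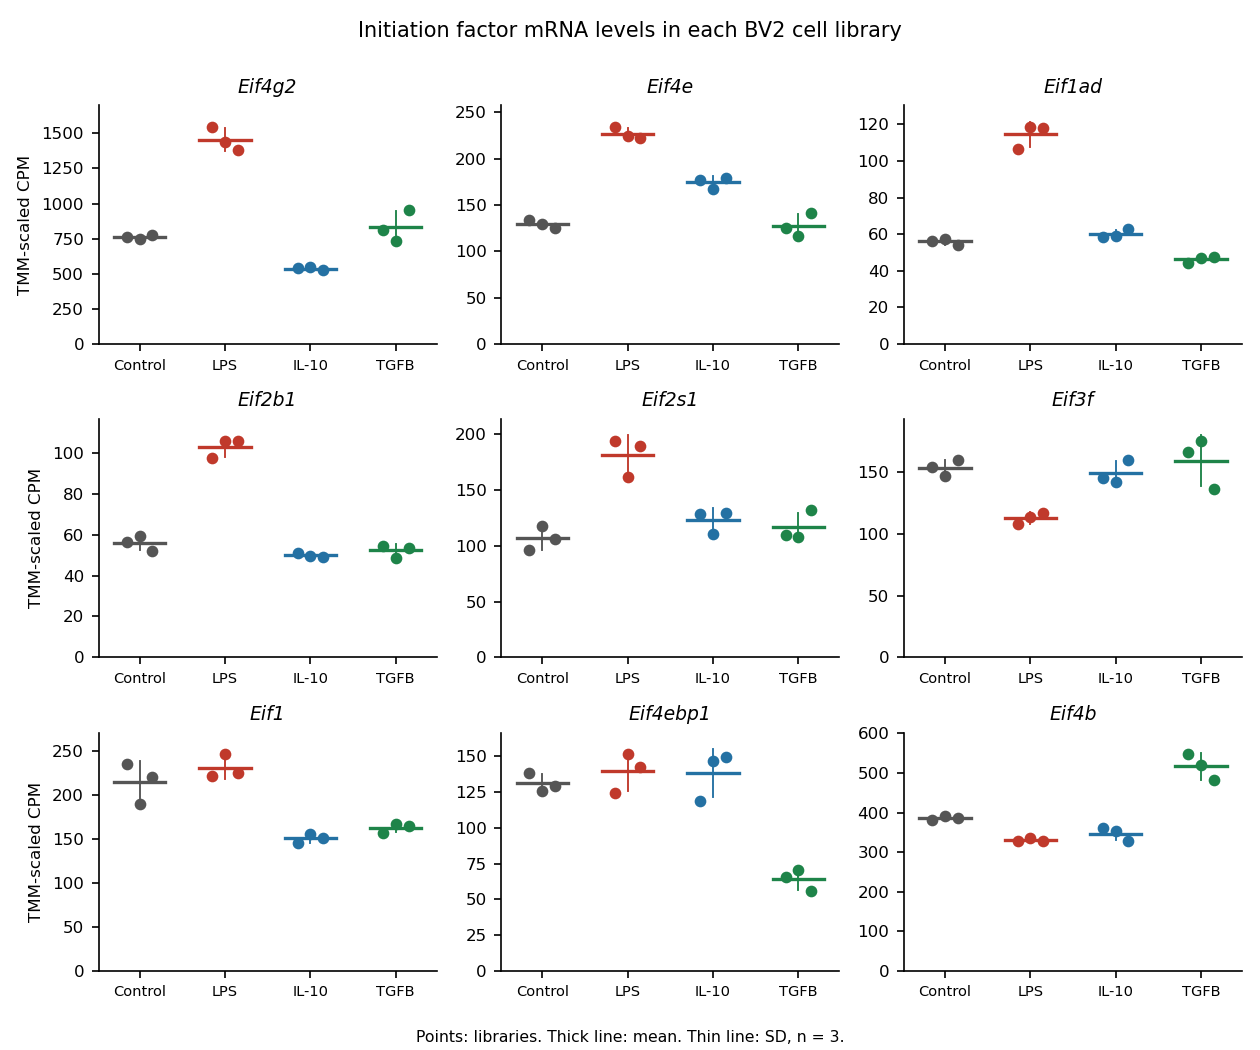
TMM-scaled CPM in each of the 12 cell libraries for 9 genes (points, libraries; lines and bars, mean and SD of 3). Eif4g2, Eif4e, Eif1ad, Eif2b1 and Eif2s1 are highest under LPS without overlap with control, Eif3f is lowest there, Eif4ebp1 is lowest under TGF-β, and Eif4b is highest under TGF-β.

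Around these factors, 54 of 56 listed neighbours of the pathway were found (kinases, regulators and elongation factors). Under LPS 16 of them rose and 19 fell, where 28.6% and 27.5% of the 11951 tested genes did. Denr, which forms a noncanonical initiator tRNA carrier, rose by log2 1.32 (45.6 to 114 CPM, edgeR adjusted p = 2.77e-11), and 5 of 6 noncanonical and mimic factors rose with none falling. Of 12 genes of the mTORC1 arm 8 fell and 1 rose, among them the mTORC1 inhibitors Ddit4 (log2 -1.48) and Sesn2 (log2 -0.69). The eIF4E kinases Mknk1 and Mknk2 fell by 1.07 and 1.05 on the log2 scale. Of 7 genes for the eIF2 kinases, the eIF2 phosphatase and the stress transcription factor Atf4, 4 fell and 1 rose. Ppp1r15a, the inducible subunit of the eIF2 phosphatase, went from 146 to 45.3 CPM (log2 -1.69, adjusted p = 1.47e-12). The kinase genes Eif2ak3 and Eif2ak4 fell by 1.00 and 0.91 on the log2 scale.

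IL-10 changed fewer of the genes and by less. Eif1 and Eif4g2 led the falls, and Eif2s2 and Eif4e the rises. By the edgeR test 5 of 49 genes rose, where 12.3% of the 11790 tested genes did, and 6 fell, where 10.9% did. The median log2 change was -0.0119 over the 49 genes and -0.00363 over all. Their share of raw counts was 0.793% ± 0.00715, in libraries whose top 10 genes took 19.6 to 20.8% of counts.

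Eif1 went from 236, 190 and 220 CPM in control cells to 145, 155 and 152 CPM under IL-10, with no overlap (log2 -0.52, SE 0.0736, edgeR adjusted p = 4.48e-05). Eif5 fell by 0.32 on the log2 scale (adjusted p = 0.0153), a call lost without control library 3. Eif1a rose by log2 0.28 (adjusted p = 0.0105), a call lost without control library 1. Eif2s2 went from 77.7, 82.7 and 84.1 CPM to 108, 108 and 118 CPM (log2 0.44, SE 0.0695, edgeR adjusted p = 0.000109), and none of the other 4 eIF2 and tRNA delivery genes, and no eIF2B gene, passed the test.

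Of the 14 cap-complex genes 3 rose and 3 fell under IL-10. Eif4g2 read 539, 546 and 524 CPM, below each control library (log2 -0.51, SE 0.0508, edgeR adjusted p = 6.27e-07). Its count ratio to Eif4g1 was 1.82 ± 0.0669 in control cells, 2.77 ± 0.294 under LPS and 1.46 ± 0.0165 under IL-10. Eif4e read 177, 167 and 180 CPM, above each control library (log2 0.43, SE 0.0628, edgeR adjusted p = 5.28e-05). Smaller changes were those of Eif4a2 (log2 0.24), Eif4a1 (log2 0.15), Eif4a3 (log2 -0.24) and Eif4g1 (log2 -0.19), and each of these calls was lost without at least 1 library. Of the 14 eIF3 genes Eif3b alone was called (log2 -0.16, adjusted p = 0.0415), and that call was lost without 4 of the 6 libraries. No gene of the eIF5A and eIF6 group passed the test. The count of 5 that rose became 2 without control library 1 and 3 without IL-10 library 3. Of 54 neighbours 5 rose and 9 fell, where 1447 and 1286 of the 11790 tested genes did. Leading them were the eIF5-mimic gene Bzw2 (log2 0.55), elongation factor Eef2 (log2 -0.29), Tsc2 (log2 -0.38), Eif2ak3 (log2 -0.51) and Ppp1r15a (log2 -0.75).

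TGF-β lowered more of the genes than it raised. Eif4ebp1, the 4E-binding protein that frees eIF4E when phosphorylated, was 2.05-fold lower, 4 eIF3 genes fell and none rose, and Eif4b and Eif5a2 rose. By the edgeR test 14 of 49 genes fell, where 15.4% of the 11798 tested genes did, and 5 rose, where 14.5% did. The median log2 change was -0.0615 over the 49 genes and 0.00564 over all. Their share of raw counts was 0.839% ± 0.0212, in libraries whose top 10 genes took 18.1 to 19.0% of counts.

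In the scanning and subunit-joining group 3 of 7 genes fell under TGF-β and none rose. Eif5 went from 221, 218 and 235 CPM to 159, 163 and 165 CPM (log2 -0.47, SE 0.0644, edgeR adjusted p = 9.88e-05). Eif1 read 157, 166 and 164 CPM, below each control library (log2 -0.40, adjusted p = 0.00194), and Eif1ad fell by 0.28 on the log2 scale, a call lost without any of 4 of the 6 libraries, where Banf1 on the opposite strand fell by 0.25. The eIF2 group moved both ways: Eif2a rose by log2 0.43 and Eif2s3x by 0.36, while Eif2d and Eif2s2 fell by 0.33 and 0.30. Serp1, whose exons overlap those of Eif2a on the opposite strand by 72 bases, went from 185 to 255 CPM (log2 0.46, not called). The part of Serp1 reads in the Eif2a value was not tested. The Eif2s3x groups overlapped, and its call was lost without 3 of the 6 libraries. The Eif2s2 call was also lost without 3 of them, control libraries 2 and 3 and TGF-β library 1 (highest adjusted p = 0.0794). In eIF2B the beta subunit gene Eif2b2 fell by 0.33 (adjusted p = 0.00797).

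Of the eIF3 genes, Eif3d, the subunit with a cap-binding fold, went from 100, 117 and 112 CPM to 75.6, 81.5 and 70.8 CPM under TGF-β (log2 -0.53, SE 0.0843, edgeR adjusted p = 0.000326). Its exons overlap those of the antisense gene Gm17638 on the opposite strand by 2151 bases. Gm17638 is not among the listed genes, and its part in the Eif3d values given here and below was not tested. Eif3c, part of the core, went from 420, 366 and 439 CPM to 303, 332 and 262 CPM (log2 -0.45, SE 0.0931, edgeR adjusted p = 0.00304). Eif3b fell by 0.32 and Eif3g by 0.31 on the log2 scale. All 4 of these genes had groups that did not overlap.

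Eif4ebp1 (chr8:27260329-27276674, plus strand, GRCm38) read 138, 126 and 129 CPM in control cells and 65.3, 70.7 and 55.6 CPM under TGF-β. The groups lay far apart, with a log2 change of -1.04 (SE 0.0916, edgeR adjusted p = 1.82e-06), or 2.05-fold lower. Its relative Eif4ebp2 did not pass the test at 34.0 ± 1.77 CPM against 35.0 ± 1.04 (log2 -0.04, SE 0.0953). The count ratio of Eif4ebp1 to Eif4e was 1.01 ± 0.0348 in control cells, 0.507 ± 0.106 under TGF-β and 0.615 ± 0.0752 under LPS, where Eif4e moved and Eif4ebp1 did not pass the test. Eif4b went from 381, 391 and 385 CPM to 548, 521 and 482 CPM (log2 0.42, SE 0.066, edgeR adjusted p = 0.000299). Eif4g3 rose by log2 0.22 and Eif4a1 fell by 0.21, calls lost without any of 5 and 3 of the 6 libraries. Eif6 fell by 0.34 and Eif5a by 0.25 on the log2 scale, the Eif5a call being lost without control library 2 or TGF-β library 1 (highest adjusted p = 0.0975), while Eif5a2 rose from 2.60, 1.04 and 2.64 CPM to 6.65, 7.74 and 5.80 CPM (log2 1.69, SE 0.312, edgeR adjusted p = 0.00125). The count of 5 that rose became 3 without control library 1, control library 3 or TGF-β library 3. Of 54 neighbours 5 rose and 8 fell, where 1715 and 1818 of the 11798 tested genes did. Ppp1r15a fell by 1.69, the stress transcription factor Atf4 by 1.17 (232 to 103 CPM) and Sesn2 by 1.30 on the log2 scale. Sesn1 rose by 1.39, the eIF4E partner Cyfip1 by 0.78 and Eef2k, the kinase of elongation factor eEF2, by 0.67.

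The treated cells were also compared with each other, in 1 fit of the 12 cell libraries. LPS stood above TGF-β in 29 of 49 genes and below it in 7, where 29.3% and 27.8% of the 12148 tested genes did. Against IL-10, LPS was higher in 23 genes and lower in 8 (27% and 26.3% of all genes). TGF-β was higher than IL-10 in 6 genes and lower in 14 (18.3% and 20% of all genes), and the 6 became 3 without IL-10 library 3, TGF-β library 1 or TGF-β library 3. The median log2 difference of LPS over TGF-β was 0.355 over the 49 genes and 0.0125 over all.

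Eif4g2 separated all 3 treatments, at 1454 ± 81.9 CPM under LPS, 833 ± 111 under TGF-β and 536 ± 11.7 under IL-10. Its log2 differences were 1.44 for LPS over IL-10, 0.80 for LPS over TGF-β and 0.64 for TGF-β over IL-10 (edgeR adjusted p = 1.9e-11, 5.29e-08 and 2.64e-06). Eif1ad ordered as LPS, IL-10 and TGF-β, with log2 differences of 0.93 and 1.31 for LPS and -0.37 for TGF-β against IL-10. The means of Banf1, which overlaps its exons on the opposite strand, had the same order (168, 110 and 102 CPM). The part of Banf1 reads in the Eif1ad differences was not tested. Eif2b1 stood higher under LPS by 1.05 over IL-10 and 0.98 over TGF-β, and its IL-10 and TGF-β levels, 49.9 ± 1.21 and 52.3 ± 3.31 CPM, overlapped (adjusted p = 0.541). Further genes at least 0.5 higher on the log2 scale under LPS than under both others were Eif1ax (0.74 and 0.61), Eif2s1 (0.57 and 0.64), Eif3b (0.56 and 0.72), Eif5a (0.57 and 0.81), Eif6 (0.55 and 0.96) and Eif1 (0.62 and 0.51). Against TGF-β alone the LPS excess passed that size for Eif4ebp1 (1.13), Eif4e (0.83), Eif1a (0.69), Eif2s2 (0.61) and Eif3d (0.56), and against IL-10 alone for Eif4g1 (0.52). Eif4b was highest under TGF-β, at 517 ± 33.2 CPM against 331 ± 4.69 under LPS and 347 ± 17.3 under IL-10, with log2 differences of -0.64 for LPS against TGF-β and 0.57 for TGF-β over IL-10. LPS was also below TGF-β for Eif4g3 (-0.66) and Eif5a2 (-0.68), and Eif5a2 was above IL-10 under TGF-β by log2 1.02. The Eif5a2 difference between LPS and TGF-β, at adjusted p = 0.0496, was called no longer without any of 5 of the 6 libraries, all except TGF-β library 3 (highest adjusted p = 0.143). TGF-β lay below IL-10 for Eif4ebp1 (-1.11), Eif2s2 (-0.74), Eif2b2 (-0.52) and Eif2c5 (-0.73), and LPS lay below IL-10 for Eif2c5 (-0.87). The Eif2c5 call between TGF-β and IL-10 was lost without IL-10 library 2.

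In EVs no treatment changed any of the genes by the edgeR test. With LPS, 0 of 48 tested genes rose and 0 fell, where 13.9% and 0.237% of the 12216 tested genes did, and 2 had an unadjusted p under 0.05 (20.2% of all genes). DESeq2 called 1 gene higher and 1 lower there (17.5% and 1.84% of all genes), and limma-voom called 0 and 0 (24.5% and 0.401%). With IL-10 the counts were 0 of 46 in each direction (0% and 0% of 8992 genes), with 2 genes at an unadjusted p under 0.05 (1.97% of all genes). With TGF-β they were 0 of 45 (0% and 0% of 9093 genes), with 1 gene at an unadjusted p under 0.05 (3.96% of all genes). DESeq2 called 0 of the genes with IL-10 (0.222% higher and 0.278% lower of all genes) and 0 with TGF-β (0.506% and 0.341%), and limma-voom called 0 in both (0% of all genes). In counts simulated from control EV means over 9078 genes, the test recovered 0% of the genes made to differ 1.5-, 2-, 4- and 8-fold. That setting differs from the LPS EV data, where 1703 genes were called higher and 29 lower. It therefore does not give the power of the LPS EV test. A missing call still does not show that a gene was unchanged.

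The genes with the lowest p in LPS EVs were Eif3a and Eif3b. Eif3a read 197, 292 and 268 CPM in control EVs and 937, 549 and 370 CPM in LPS EVs (log2 1.33, SE 0.469, edgeR adjusted p = 0.139). Eif3b read 726, 423 and 641 CPM and then 362, 271 and 218 CPM (log2 -1.06, SE 0.417, edgeR adjusted p = 0.195). Neither pair of groups overlapped, and Eif3c was next (log2 -1.09, adjusted p = 0.284). In IL-10 EVs they were Eif4h, a cofactor of the eIF4A helicase, with 178, 100 and 142 CPM in control EVs against 364, 290 and 283 CPM (log2 1.08, adjusted p = 1), Eif1ad (log2 1.00) and Eif3b (log2 -0.90). In TGF-β EVs they were Eif3c, with 373, 118 and 272 CPM in control EVs against 20.1, 116 and 33.9 CPM (log2 -2.21, adjusted p = 0.999), Eif4b (log2 1.33) and Eif4h (log2 0.78).

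Between EVs and cells of the same treatment, 1 gene stood far from the rest. Eif4ebp2 (chr10:61428491-61452661, minus strand, GRCm38), a 4E-binding protein gene, was at a low level in cells and at a high one in EVs. In control, LPS, IL-10 and TGF-β cells it read 27.3 to 36.1 CPM over all 12 libraries. In EVs it read 122, 2668 and 1936 CPM (control), 588, 195 and 475 CPM (LPS), 4396, 3614 and 1477 CPM (IL-10) and 2748, 2297 and 4144 CPM (TGF-β). Every EV library was above every cell library, and control EV library 1 was the lowest of the EV libraries. The log2 differences were 5.54 (SE 1.18, edgeR adjusted p = 0.043) in control, 3.75 (SE 0.435, adjusted p = 0.00062) in LPS, 6.80 (SE 0.569, adjusted p = 0.0183) in IL-10 and 6.54 (SE 0.309, adjusted p = 0.00119) in TGF-β, or 46.5-, 13.5-, 112- and 92.9-fold. Per kilobase it went from 6.05 CPM in control cells, place 39 of the 49 genes, to 272, 547 and 530 CPM in control, IL-10 and TGF-β EVs, places 2, 1 and 2, and to 72.5 CPM in LPS EVs, place 10. It held 0.389% of the counts of the 49 genes in control cells and 26.2% and 25.8% in IL-10 and TGF-β EVs. The control call was lost without each of the 3 control cell libraries, without control EV library 2 or 3, and with a mean of at least 50 counts required (highest adjusted p = 0.196). Without control EV library 1 it was 6.00 (adjusted p = 0.00182).

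**Figure D4:**
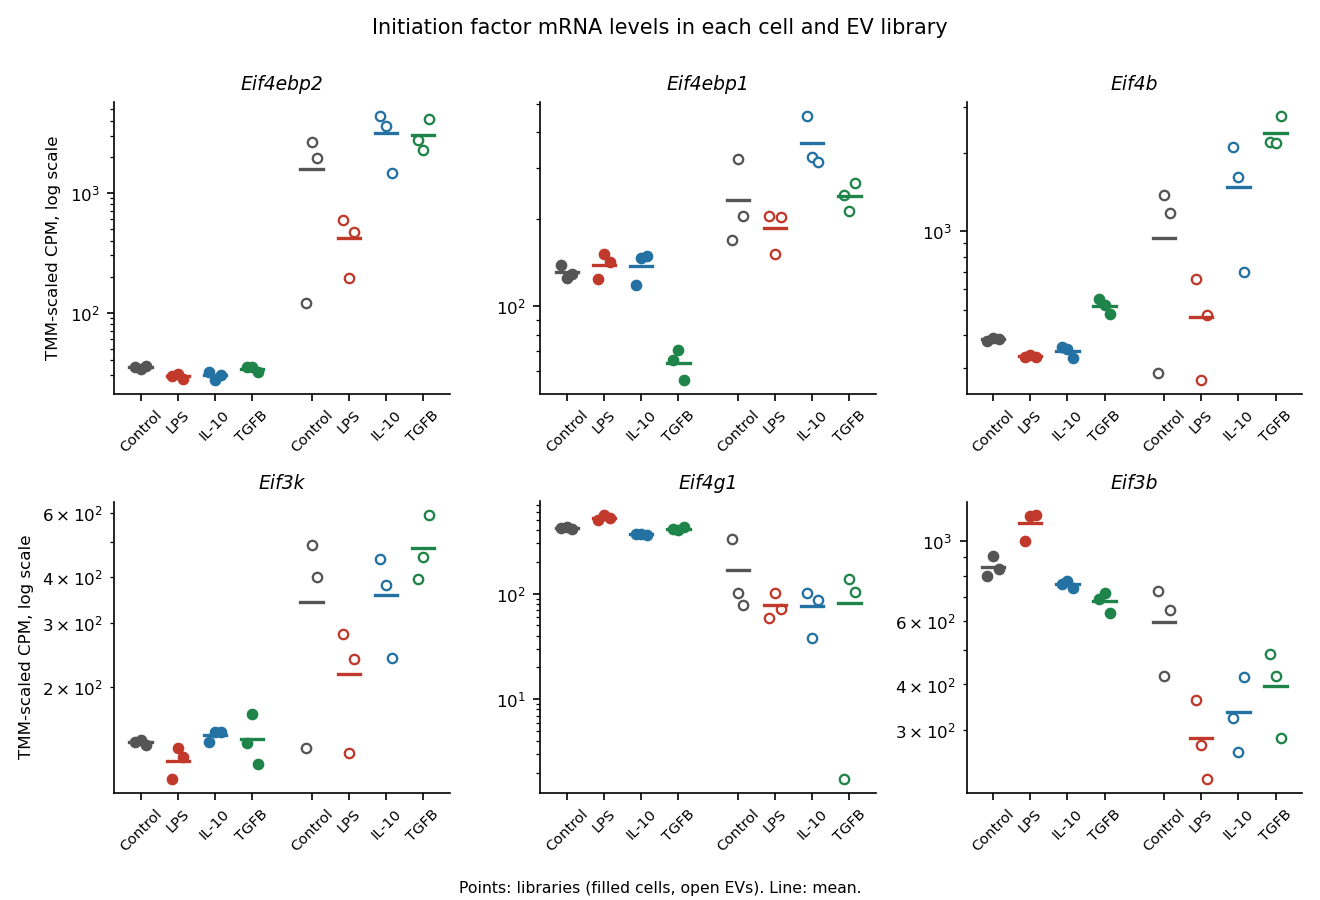
TMM-scaled CPM on a log axis in each of the 24 libraries for 6 genes (filled, cells; open, EVs; lines, mean of 3; cells and EVs were scaled separately). Eif4ebp2 is at 27.3 to 36.1 in cells and 122 to 4396 in EVs; Eif4b, Eif4ebp1 and Eif3k are higher and Eif4g1 and Eif3b lower in most EV libraries.

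Other genes differed between EVs and cells in some treatments. In control, 1 of 49 genes was higher in EVs and 0 lower by the edgeR test (1.23% and 9.43% of the 11427 tested genes), and 8 genes had an unadjusted p under 0.05 (21.5% of all genes). DESeq2 called 6 higher and 2 lower (8.72% and 12.8% of all genes), and limma-voom 3 and 1 (3.06% and 15.5%). Leaving out control EV library 1 gave 10 higher and 8 lower, among them Eif4b (log2 1.69), Eif3k (log2 1.62), Eif1b (log2 1.72), Eif4g1 (log2 -2.25), Eif2b5 (log2 -2.68) and Eif4a1 (log2 -1.30). Without control EV library 2 the counts were 2 and 2, without control EV library 3 there was 1 lower, and without any control cell library 0 were higher. Shares of all genes called in these runs are not given here, so their counts do not set the 49 genes apart.

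In LPS, 5 of 49 genes were higher in EVs and 11 lower, where 25.3% and 15.2% of the 13113 tested genes were. Eif4g1 (chr16:20668313-20692884, plus strand, GRCm38), the main cap-complex scaffold, read 498, 562 and 523 CPM in cells and 58.6, 103 and 72.2 CPM in EVs (log2 -2.86, SE 0.258, edgeR adjusted p = 0.000512). Eif3b read 999, 1176 and 1182 CPM in cells and 362, 271 and 218 CPM in EVs (log2 -2.07, SE 0.257, edgeR adjusted p = 0.000711). Eif4g2, at 1454 ± 81.9 CPM in cells and 429 ± 52.8 CPM in EVs, followed (log2 -1.85, adjusted p = 0.000635), and none of these 3 genes had overlapping groups. Also lower were Eif3c (log2 -1.84), Eif3l (-1.36), Eif2b1 (-1.36), Eif4a1 (-1.34), Eif3d (-1.25), Eif5a (-1.21), Eif2s1 (-1.13) and Eif2b5 (-1.05). The Eif2b5 call, at adjusted p = 0.0463, was lost without any of 5 of the 6 libraries, all except LPS EV library 3, and with 3 other settings: RLE scaling, a mean of at least 50 counts, and library size alone (highest adjusted p = 0.125). Besides Eif4ebp2, Eif3a (log2 1.14), Eif1b (1.04), Eif5 (0.94) and Eif5b (0.92) were higher, and those 4 calls were lost without each of the LPS cell libraries in turn, which left 1 higher. Without LPS EV library 2 there were 9 higher, and without LPS EV library 1 there were 18 lower. The scaling mattered here: with library size alone the median over all genes moved from 0.134 to 0.424, that over the 49 genes from -0.299 to 0.0191, and the share of called genes that were higher from 62.5% to 73.7%. The LPS EV libraries also held the RNA of genes silent in cells and of other cell types' markers given above, and the part of these in the result was not tested.

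In IL-10, 6 genes were higher in EVs and 2 lower (7.49% and 10.2% of the 11447 tested genes), and in TGF-β 7 were higher and 2 lower (9.42% and 8.99% of the 11389 tested genes). Eif4b, which stimulates the eIF4A helicase, read 360, 354 and 327 CPM in IL-10 cells and 2113, 1611 and 698 CPM in IL-10 EVs (log2 2.17, edgeR adjusted p = 0.0282). In TGF-β it read 548, 521 and 482 CPM in cells and 2208, 2183 and 2773 CPM in EVs (log2 2.26, SE 0.16, edgeR adjusted p = 0.00161). The groups did not overlap in either treatment, and Eif4b held 12.2% and 20.3% of the counts of the 49 genes in IL-10 and TGF-β EVs. Eif4ebp1 was higher in EVs by log2 1.48 in IL-10 and 1.96 in TGF-β, where cells read 65.3, 70.7 and 55.6 CPM and EVs 241, 214 and 265 CPM. Eif1ad was higher by 1.67 and 1.75, and the peripheral eIF3 subunit gene Eif3k by 1.35 and 1.78. Eif3e was higher in IL-10 EVs (log2 0.88), and Eif5 (1.27) and Eif1 (1.14) in TGF-β EVs. Lower were Eif4g1 (-2.19) and Eif3b (-1.11) in IL-10 EVs and Eif4g3 (-3.66) in TGF-β EVs, where it read 2.98, 9.97 and 4.76 CPM against 78.9, 75.8 and 78.0 CPM in cells. Eif4e3 was at 0 in all 3 TGF-β EV libraries and at 1.66 ± 0.428 CPM in TGF-β cells, at least 3.05-fold lower when 3 counts per library stand for 0.

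Leaving out single libraries moved these counts, given here without the matching shares of all genes. In IL-10 no gene was called when any of the 3 IL-10 cell libraries was left out, 3 were higher without IL-10 EV library 2, and 11 were higher and 6 lower without IL-10 EV library 3. In TGF-β 3 or 4 were higher and 0 lower without a TGF-β cell library, 12 were higher and 5 lower without TGF-β EV library 1, and 8 and 4 were lower without TGF-β EV libraries 2 and 3. The TGF-β calls for Eif5, Eif1ad, Eif1, Eif4g3 and Eif4e3 were lost without each TGF-β cell library, and that for Eif3k without TGF-β cell library 1 or 3. Between EVs and cells the summed share of the 49 genes was 1.04% ± 0.0354 in control EVs, 0.912% ± 0.112 in LPS EVs, 1.07% ± 0.0393 in IL-10 EVs and 1.01% ± 0.0804 in TGF-β EVs. Without Eif4ebp2 and Eif4b it was 0.796% ± 0.164, 0.808% ± 0.0802, 0.657% ± 0.136 and 0.546% ± 0.101 (SD, n = 3). The matching cells held 0.872% ± 0.0178, 1.15% ± 0.00848, 0.758% ± 0.00549 and 0.783% ± 0.0235. In control and IL-10 the difference was within the SD of the EV libraries. Eif4ebp2 and Eif4b are high in EVs in these same data, so leaving them out lowers the EV share by choice. Over the 49 genes, exon length and the log2 difference of EVs over cells were near unrelated, as a description with Pearson's r from -0.107 to 0.098 in the 4 treatments.

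**Figure D5:**
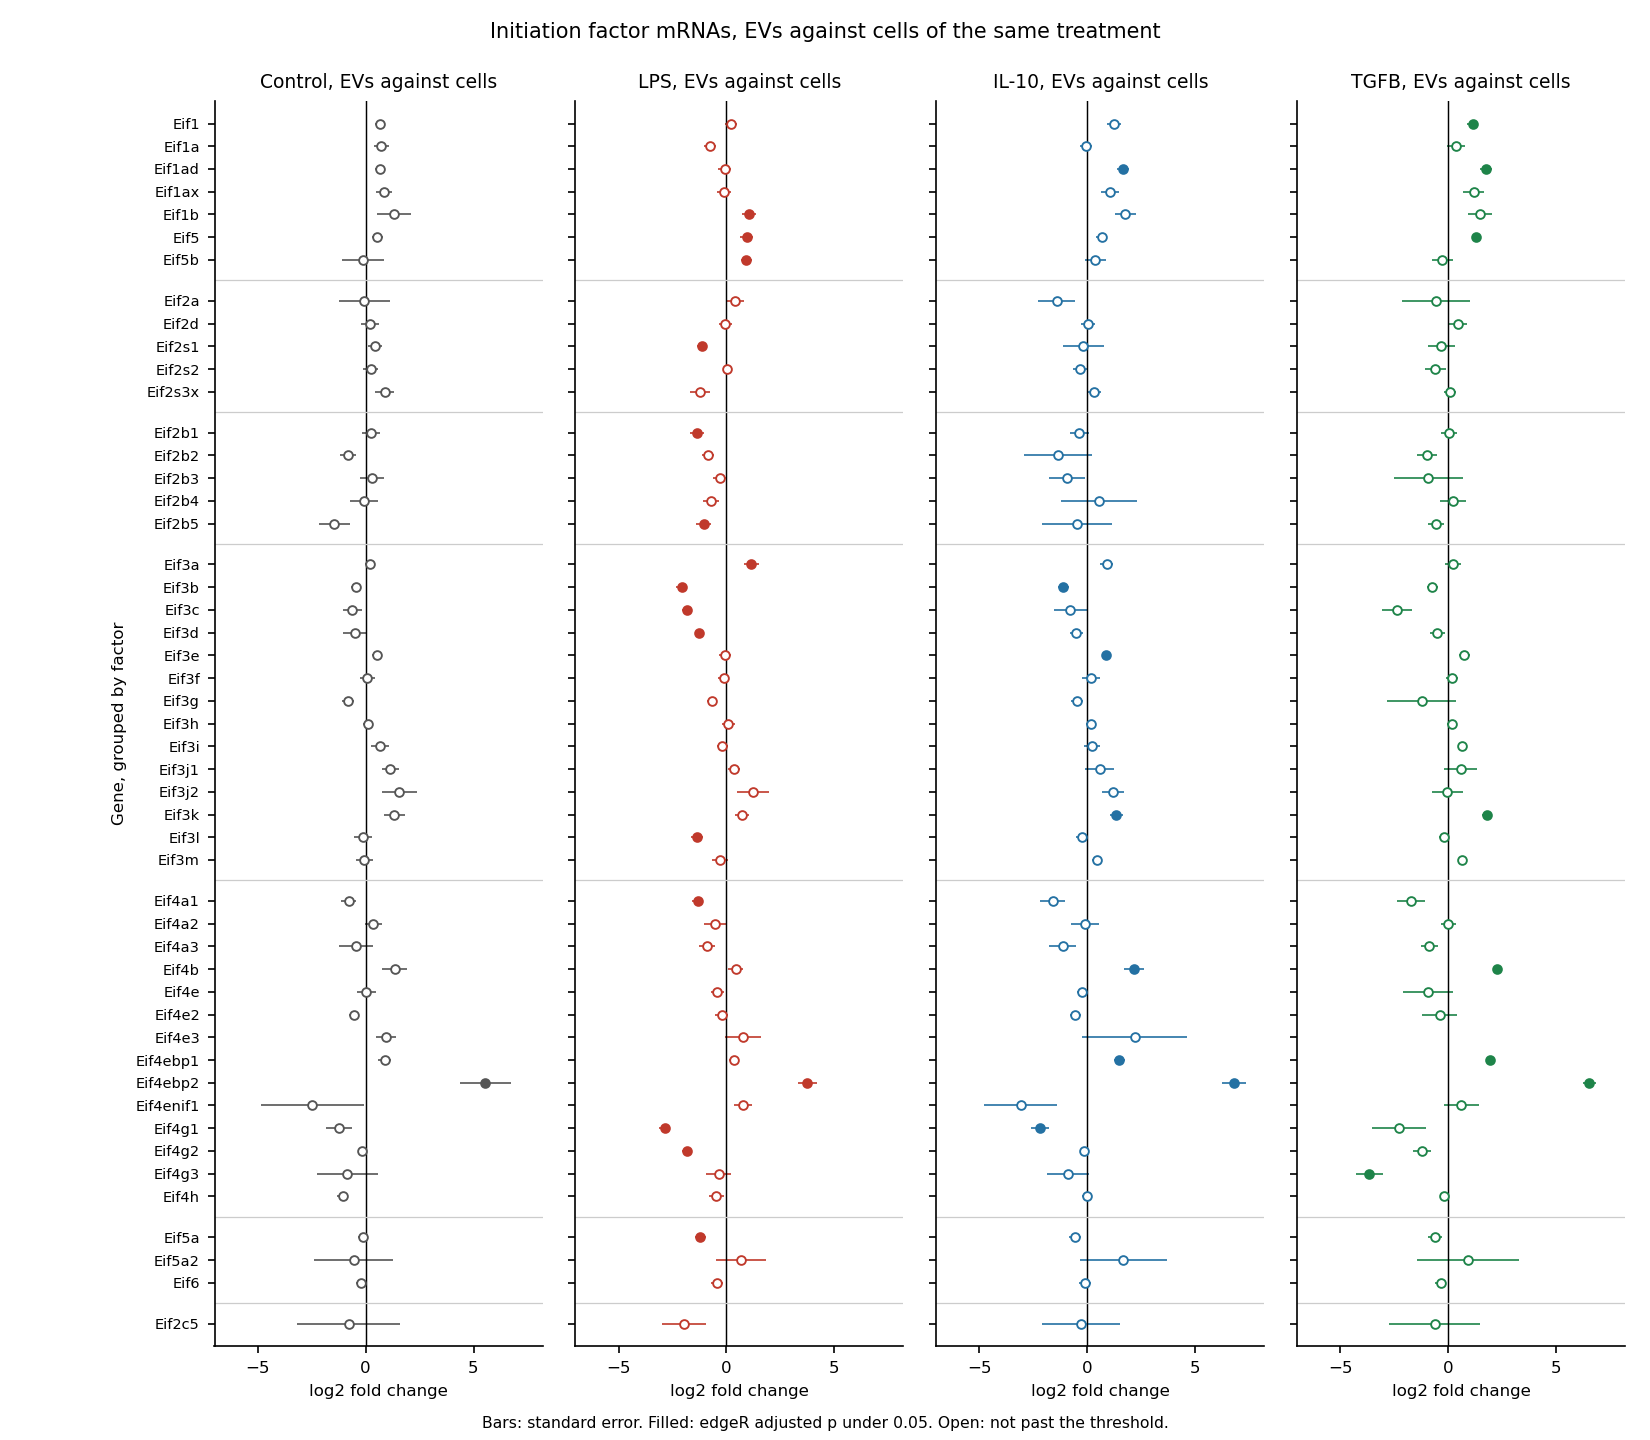
Log2 difference of EVs over cells of the same treatment for the 49 genes (bars, standard error; filled points, edgeR adjusted p under 0.05; n = 3 libraries per group). Eif4ebp2 lies at 3.75 to 6.80 in the 4 panels; Eif4e3 in TGF-β is not drawn because all its EV libraries are at 0.

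Of the pathway's neighbours, the poly(A)-binding protein gene Pabpc4 was higher in EVs by log2 2.81 in LPS, 5.24 in IL-10 and 5.31 in TGF-β (adjusted p = 0.000627, 0.0184 and 0.00225). Its main relative Pabpc1 was higher by log2 1.17 in LPS and 2.03 in TGF-β, and 4.93-fold in IL-10. The elongation factor subunit genes Eef1b2 (1.34, 2.50 and 2.25 in LPS, IL-10 and TGF-β) and Eef1g (2.07 and 2.45 in IL-10 and TGF-β) were higher too. The mTORC1 inhibitor gene Tsc2 was lower in LPS EVs (log2 -2.43) and in TGF-β EVs (log2 -2.71). In all, 6 of 54 neighbours were higher and 11 lower in LPS, where 3320 and 1993 of the 13113 tested genes were. In IL-10 there were 9 and 1 (857 and 1169 of 11447 genes) and in TGF-β 11 and 2 (1073 and 1024 of 11389 genes). In control there were 1 and 1 (140 and 1078 of 11427 genes).

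Whether a treatment acted differently in EVs than in cells was tested as an interaction. For LPS, 0 of 49 genes had a more positive and 3 a more negative effect in EVs, where 14.1% and 2.04% of the 13263 tested genes did, and 11 had an unadjusted p under 0.05 (24.4% of all genes). The median difference was -0.543 over the 49 genes and 0.226 over all, and with library size alone -0.251 and 0.535. DESeq2 called 1 and 6 (20.2% and 3.14% of all genes), and limma-voom 0 and 1 (0.166% and 0.46%). Eif4g2 read 796, 596 and 568 CPM in control EVs and 477, 372 and 436 CPM in LPS EVs, while it rose from 761 to 1454 CPM in cells, a difference of effects of -1.69 (SE 0.292, edgeR adjusted p = 0.00276). Eif3b and Eif2s1 were the other two, at -1.62 (adjusted p = 0.00947) and -1.55 (adjusted p = 0.0256). For IL-10, 0 genes were called in either direction (0.109% and 0.176% of the 11930 tested genes), and limma-voom called 0 (0% and 0.0168%). DESeq2 called 1 higher and 0 lower (3.12% and 2.76% of all genes). The 2 genes at an unadjusted p under 0.05 (12.1% of all genes) were Eif4h (0.97, edgeR adjusted p = 0.363) and Eif1ad (0.94, edgeR adjusted p = 0.367). For TGF-β, 0 were higher and 1 lower (0.134% and 0.176% of the 11954 tested genes), with 4 at an unadjusted p under 0.05 (13.1% of all genes). The gene was Eif4e3, whose TGF-β EV libraries are all at 0. DESeq2 called 1 and 1 (3.86% and 2.66% of all genes), and limma-voom 0 and 0 (0% and 0.0335%). The LPS count of 3 became 9, 7 and 6 without control EV library 1, control EV library 2 and LPS EV library 1, and 1 without LPS EV library 2.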

How the data were processed

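RNA of BV2 cells and of their EVs was sequenced in paired 150-base reads, from SMART-Seq v4 and Nextera XT libraries with 18 PCR cycles, per the labels' protocols. The authors deposited 6 tables of raw read counts per gene. DESeq2 is named in the submitters' processing notes, and the sources used here give no aligner, genome build or strand setting. Columns name a group and a number from 1 to 3 but no sample title, no source says that equal numbers share a culture, and the control columns repeated between tables hold identical values and were used once.

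Counts were tested with edgeR 4.0.16 (R 4.3.3): TMM scaling, filterByExpr, robust quasi-likelihood F test, Benjamini-Hochberg adjustment over all genes tested, threshold 0.05. All p-values without another name come from this test. Treatments were fitted against controls within the cells or the EVs, EVs against cells within a treatment, and the difference of effects as an interaction, 16 comparisons in all. SE is the log2 change divided by the square root of F. Comparisons with control share the control libraries, and no overlap between them was computed. Alternatives were RLE scaling, library size alone, DESeq2 1.42.0, limma-voom with quality weights (limma 3.58.1), other filters, other sets of libraries, each library left out and, added after the data were seen, the column number as a block. The test was also run on simulated data. Summaries used Python 3.11.15 with pandas 2.3.3, numpy 2.4.6 and scipy 1.17.1, and plots matplotlib 3.10.9. Positions and exon lengths come from GENCODE M21 and sequences from RefSeq, GRCm38.p6.

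Named were all genes past the threshold with a log2 change over 0.5 and a mean of at least 50 counts, a fixed list of core factors, the 3 lowest p-values where nothing passed, and up to 8 neighbours of the pathway per comparison. Genes outside that rule are given where a group is counted in full. The genes and lists were chosen with earlier results of these data known.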

Additional observations from a re-analysis of the deposited data

Results flagged for a closer look

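For 4 genes the effect of a treatment differed between EVs and cells by an interaction test in edgeR. Under LPS these were Eif4g2 (-1.69 on the log2 scale, adjusted p = 0.00276), Eif3b (-1.62, adjusted p = 0.00947) and Eif2s1 (-1.55, adjusted p = 0.0256), each of which rose in LPS-treated cells and had a lower mean in LPS EVs than in control EVs. The Eif3b call was lost without LPS EV library 2 and with limma-voom, and the Eif2s1 call without 7 of the 12 libraries and with 3 other settings. The LPS EV libraries also carried RNA of genes silent in all cell libraries (1157 to 4986 CPM), whose part in these differences was not tested. Under TGF-β Eif4e3 had a fitted difference of -8.96 (adjusted p = 0.0443), which is no measure of size because all 3 TGF-β EV libraries were at 0, and the call was lost without each of the 6 cell libraries.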

How the results depend on the processing

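Over 188 called pairs of gene and comparison and 2278 combinations with an alternative, 2030 kept direction and call, 248 kept direction without the call and 0 turned direction, and 124 pairs kept the call in every alternative run, the replicate block below aside. Counts of called genes (higher, then lower in EVs or with treatment) moved by over 1.5 times as follows. With DESeq2 there were 1 and 1 for LPS in EVs, 8 higher for IL-10 in cells, 6 and 2 for control EVs against cells, 10 higher for IL-10 EVs against cells, 9 lower for TGF-β EVs against cells, and for the differences of effects 1 and 6 (LPS), 1 higher (IL-10) and 1 higher (TGF-β). With limma-voom there were 3 and 1 for control EVs against cells, 19 lower for LPS EVs, 4 lower for TGF-β EVs, 1 lower for the LPS difference and 0 lower for the TGF-β difference. With a mean of at least 50 counts there were 0 higher for control EVs, 1 lower for TGF-β EVs and 0 lower for the TGF-β difference, the last also without a filter beyond 1 count. With library size alone there was 1 lower for IL-10 EVs against cells and 1 higher for the LPS difference. The cause of these moves was not tested. Library size alone moved the median over all genes of TGF-β EVs against cells from -0.455 to -0.735 and of the TGF-β difference from -0.137 to -0.317.

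Leaving out each library in turn gave 19 to 26 higher and 6 to 10 lower genes for LPS in cells, 2 to 6 and 4 to 8 for IL-10, and 3 to 6 and 10 to 15 for TGF-β. In EVs it gave 0 to 1 and 0 to 1 for LPS and 0 for IL-10 and TGF-β. The LPS changes came without control EV library 3 (1 higher) and control EV library 1 (1 lower). For EVs against cells it gave 0 to 10 and 0 to 8 in control, 1 to 9 and 10 to 18 in LPS, 0 to 11 and 0 to 6 in IL-10, and 3 to 12 and 0 to 8 in TGF-β. For the differences of effects it gave 0 to 1 and 1 to 9 (LPS), 0 and 0 to 1 (IL-10, 1 without IL-10 EV library 2), and 0 to 1 and 0 to 2 (TGF-β, 1 higher without control EV library 3 and 2 lower without TGF-β EV library 2). Between treatments it gave 17 to 21 and 6 to 8 for LPS against IL-10, 27 to 30 and 6 to 9 for LPS against TGF-β, and 3 to 7 and 12 to 17 for TGF-β against IL-10. EV libraries held fewer counts than cell libraries and correlated less within a group, which limits the precision of every EV value. Genes at 0 made up 19.6 to 50.0% of the list in control, IL-10 and TGF-β EVs. In LPS EVs they made up 0.489 to 4.42%, below the 4.91 to 7.25% of the cell libraries.

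Whether same-numbered columns share more than a number is not settled by the values. Across genes, their deviations from the group means correlated at r = -0.235 to 0.366. In none of the 16 comparisons was every pair over 0.1, and in none did every library correlate best with its own number. For LPS against TGF-β in cells the 3 same-numbered pairs were at 0.0755, 0.227 and 0.366, and the own number was best in 4 of 6 tries. With the column number as a replicate block, added after the data were seen, 25 of 32 counts of called genes stayed within 1.5 times. The others were 0 higher for control EVs against cells, 2 higher for LPS EVs, 0 and 0 for IL-10 EVs, 2 and 0 for TGF-β EVs and 0 lower for the TGF-β difference. Of the 188 pairs of gene and comparison 159 kept the call with the block, and 0 turned direction.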
